A study of Mus musculus with 2 samples.

Results

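The segments described here are the variable (V) segments of the T cell receptor alpha chain in mouse Treg cells, the regulatory subset of CD4 T cells that holds immune responses in check. They are all genes whose GENCODE M21 symbol starts with Trav, which gives 128 of the 55536 annotated genes. Their levels were also summed over subfamilies, the number right after Trav, which gives 23 subfamilies. The samples were polyA-selected RNA-seq libraries of Treg cells of a male mouse aged 9 weeks, given as technical replicates 1 and 2 of 1 biological replicate, called library 1 and library 2 below. No source used here gives the strain, the sorting markers or the number of cells. The libraries form 1 group, so no conditions were compared. Every SD is over these 2 technical libraries and says nothing of other mice.

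An alpha chain gene is assembled in the thymus, where the recombinase made of RAG1 and RAG2 joins 1 V segment to 1 joining (J) segment, and splicing then adds the constant region encoded by Trac. The V segment encodes the leader peptide and the part of the chain that holds the first and second complementarity-determining loops, which mostly touch the major histocompatibility molecule. In the mouse a long block of V segments has been duplicated, and d or n after the subfamily number marks the copies. The delta chain locus lies inside the alpha locus, and segments with dv in their name can serve either chain.

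All 128 segments lie on the plus strand of chromosome 14 (GRCm38), from 52427928 for Trav1 to 53977678 for Trav23. GENCODE annotates 108 as TR_V_gene and 20 as TR_V_pseudogene. A segment ends at the point where recombination cuts, and its last bases usually encode a tyrosine, any residue and the conserved cysteine that closes the V domain. The motif TACNNCTG, which reads tyrosine, any codon ending in C, and the start of cysteine, was searched on the sense strand in the final 30 bases of each gene's longest transcript. It was found in 90 of 108 TR_V_gene members (83.3%) and in 13 of 20 pseudogenes (65%), against 0.475% of the 55322 other genes with a transcript sequence. Of the 6 pseudogenes detected below, 5 held it, and of the other 14, 8 did. No match says only that these letters are not in that window, as in Trav2, which was expressed at 6.72 and 6.02 TPM. The last 45 bases of the leading segments are shown to make visible how alike members of a subfamily are at the 3' end, followed by Trav1 and the detected pseudogene Trav20, each the only member of its subfamily, with the motif in capitals (GENCODE M21 transcripts):
Trav7d-2: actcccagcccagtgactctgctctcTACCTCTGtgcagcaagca
Trav7-4: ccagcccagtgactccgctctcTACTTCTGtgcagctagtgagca
Trav9-1: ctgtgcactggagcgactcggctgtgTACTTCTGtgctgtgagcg
Trav14n-3: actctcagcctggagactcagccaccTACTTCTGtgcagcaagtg
Trav14d-1: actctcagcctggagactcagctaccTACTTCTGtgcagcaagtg
Trav14-2: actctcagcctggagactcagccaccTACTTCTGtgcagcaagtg
Trav3-3: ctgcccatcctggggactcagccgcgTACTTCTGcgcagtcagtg
Trav4-4-dv10: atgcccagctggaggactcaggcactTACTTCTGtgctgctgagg
Trav12d-3: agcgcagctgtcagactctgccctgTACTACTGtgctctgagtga
Trav1: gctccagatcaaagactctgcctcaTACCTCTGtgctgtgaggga
Trav20: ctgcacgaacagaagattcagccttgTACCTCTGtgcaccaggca

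Treg identity was checked first. Foxp3, the lineage-defining transcription factor, stood at 108 and 111 TPM, and Il2ra, the high-affinity interleukin 2 receptor chain, at 364 and 371 TPM. Ctla4, Ikzf2 and Izumo1r, also Treg markers, lay between 221 and 745 TPM. The coreceptor Cd4 had 335 and 301 TPM. The chains that signal for the receptor were high, with Cd3d at 694 and 684 TPM, Cd3e at 1117 and 1078 TPM, Cd3g at 1020 and 997 TPM and Cd247 at 346 and 328 TPM. Of the markers of other cells, Cd8a had 1.69 and 2.84 TPM, Cd8b1 24.1 and 23.3 TPM, and the B cell gene Igkc 34.5 and 28.1 TPM. Among other B cell genes, Ms4a1 had 2.17 and 1.15 TPM, Cd79a 8.77 and 8.34 TPM and Cd79b 33.0 and 28.7 TPM. The genes of immature thymocytes were low, with at most 0.03 TPM for Rag1 and Rag2 in library 1 and 0 in library 2. Ptcra, the surrogate alpha chain of thymocytes, had 0 and 0.04 TPM, and Dntt, which adds untemplated bases at the junctions, 1.5 and 1.15 TPM. The part of such cells in the Trav levels was not tested. The totals were 34697128 and 32049199 estimated counts, and the Trav segments took 10767 and 9854 of them.

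The alpha V segments were broadly expressed. At 1 TPM or more in both libraries, the level called detected here, there were 103 segments (80.5% of 128), against 23.9% of all annotated genes. They comprised 97 TR_V_gene members and 6 pseudogenes, and each library alone had 107. The summed level was 1610 TPM in library 1 and 1530 TPM in library 2. That was 65.9% and 70.9% of the level of Trac (2444 and 2158 TPM). Whether reads that cross from a V to a J segment were lost in alignment was not tested. The V segments of the beta chain (Trbv) summed to 2585 and 2619 TPM, with 23 of 35 detected, and the alpha J segments (Traj) to 2359 and 2085 TPM, with 46 of 60 detected. J segments are very short, and the Traj sum rested on only 579 and 492 estimated counts. The delta V segments without an alpha name (Trdv) summed to 20.5 and 19.6 TPM, with 2 of 6 detected, and the single gamma V gene matched (Trgv) to 0.94 and 1.05 TPM. The delta constant gene Trdc had 3.98 and 3.87 TPM, and Sox13, a factor of gamma-delta T cells, 0.08 and 0 TPM. The beta constant genes Trbc1 (1777 and 1693 TPM) and Trbc2 (3811 and 3816 TPM) share sequence, so their split is uncertain. In bulk RNA, fewer cells with a segment and less RNA per cell cannot be told apart.

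Of the 23 subfamilies, 20 were detected, and a few of them held most of the RNA. Trav14 was highest at 279 and 277 TPM over 9 segments, 17.7% ± 0.531 of all Trav TPM (SD, n = 2). Trav7 followed at 242 and 207 TPM over 13 segments (14.3% ± 1.04), and Trav6 at 167 and 167 TPM over 15 segments (10.7% ± 0.369). Trav12 (137 and 128 TPM) and Trav9 (136 and 125 TPM) came next and differed from each other by less than the spread between libraries. Together these 5 subfamilies made up 59.4% of Trav TPM. Trav4 had 124 and 126 TPM, above Trav9 in library 2 and within its spread between libraries, so the fifth place is not settled. Trav13 had 117 and 112 TPM, and Trav3 113 and 110 TPM. Trav5 (65.0 and 63.5 TPM) and Trav8 (60.5 and 49.9 TPM) closed the 10 highest.

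The order followed the number of segments only in part. The 9 highest subfamilies had 8 to 15 segments each, and every subfamily of 1 segment ranked 14 or lower. Levels per segment differed between subfamilies. Per segment, Trav14 averaged 30.9 TPM, Trav6 11.2 TPM, and Trav15, with as many segments as Trav14, 3.00 TPM. All 9 Trav14 segments are TR_V_gene, whereas Trav15 has 6 TR_V_gene members and 3 pseudogenes. Trav17, a subfamily of 1 segment, had 19.9 and 17.2 TPM. The lowest subfamilies with a read were Trav18 (7 and 3 counts), the pseudogene Trav22 (4 and 5 counts) and Trav23 (1 and 1 count). Trav22 and Trav23 are the last segments of the locus, on the side of the J segments.

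**Figure D1:**
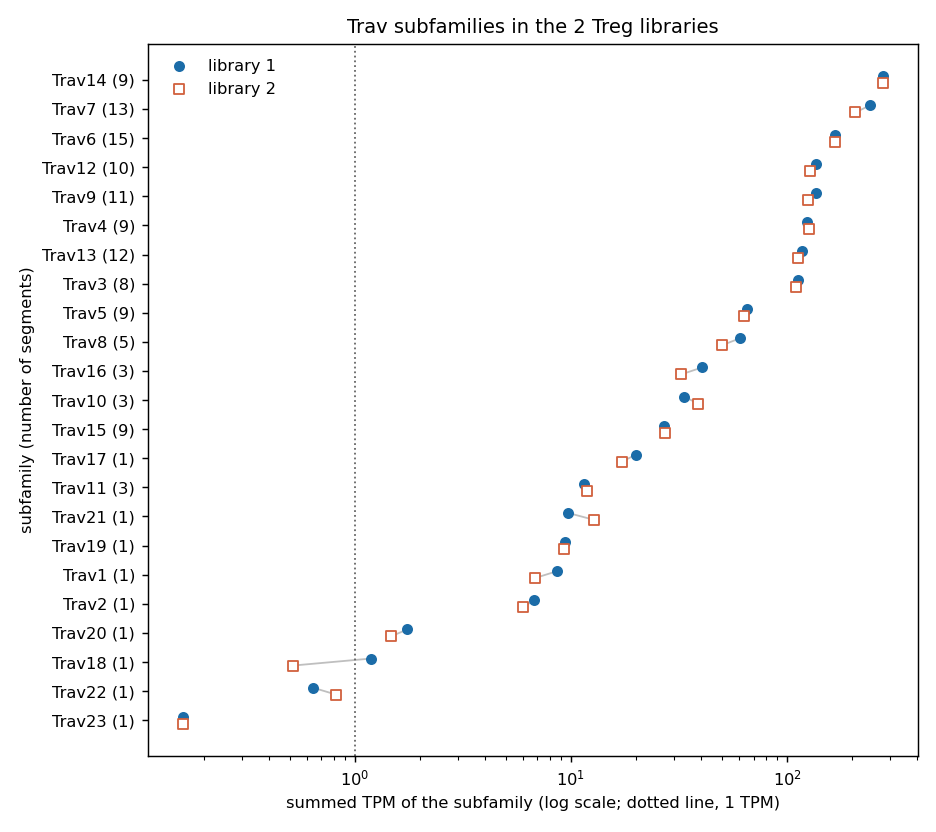
Summed TPM of each Trav subfamily (log axis) in library 1 (filled circles) and library 2 (open squares), with the number of segments in brackets. The levels run from 0.16 TPM for Trav23 to 279 and 277 TPM for Trav14, and Trav18 lies on either side of the dotted 1 TPM line.

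Among single segments, the highest was Trav7d-2 at 61.7 and 51.3 TPM (chr14:52683964-52684472). Trav7-4 had 55.6 and 47.2 TPM (chr14:53461099-53461738), Trav9-1 46.9 and 42.2 TPM, and Trav14n-3 48.0 and 38.7 TPM. The pair Trav14d-1 and Trav14n-1 were each listed at 42.5 and 39.1 TPM. Trav3-3 had 38.5 and 42.4 TPM, Trav14-2 33.0 and 38.7 TPM, and Trav4-4-dv10, which the delta chain can also use, 32.2 and 30.8 TPM. Trav12d-3 completed the 10 highest by mean but had 45.4 TPM in library 1 and 13.9 TPM in library 2. Several neighbours in this order, such as Trav9-1 and Trav14n-3, differed by less than their spread between libraries. The sequences below show that the ranks of Trav7d-2, Trav14d-1, Trav14n-1 and Trav12d-3 rest on how shared reads were divided.

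The 10 segments with dv in their name made up 7.81% ± 0.227 of Trav TPM (SD, n = 2). All but Trav15d-1-dv6d-1 were detected. Trav14d-3-dv8 had 27.6 and 27.6 TPM, Trav6-7-dv9 16.9 and 16.7 TPM, and Trav21-dv12 9.73 and 12.9 TPM.

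Segments annotated as pseudogenes made up 1.09% ± 0.061 of Trav TPM (SD, n = 2). Of the 20, 10 had 0 estimated counts in both libraries and 6 were detected. The detected ones were Trav8-2 (5.78 and 4.48 TPM), Trav13-3 (2.18 and 3.51 TPM), Trav9n-1 (3.00 and 1.88 TPM), Trav20 (1.75 and 1.47 TPM), Trav11n (2.06 and 1.3 TPM) and Trav4d-2 (1.31 and 1.06 TPM). Trav20 shares no 50-base window with another gene, so its 11 and 9 counts do not depend on a division of reads. The 2 TR_V_gene members with 0 estimated counts in both libraries were Trav7n-6 and Trav13d-3. Both have no window of their own, so a listed 0 sets no limit on their RNA.

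The part of the locus on the side of the J segments had the largest share and the highest median level. In equal parts by gene order, the last 42 segments (Trav7-4 to Trav23) made up 41.5% ± 1.41 of Trav TPM, the middle 43 (Trav16d-dv11 to Trav6-4) 29.4% ± 0.00859 and the first 43 (Trav1 to Trav8d-2) 29.0% ± 1.4 (SD, n = 2). The median TR_V_gene level was 16.6 and 17.6 TPM in the last part, 11.7 and 9.86 TPM in the middle part and 9.01 and 7.83 TPM in the first part. Level did not climb evenly along the order, since the last part also holds Trav18, Trav22 and Trav23, and the highest single segment, Trav7d-2, lies in the first part. All 42 segments of the last part have plain names, whereas the first part has 35 names with d and the middle part 34 with n. Position and copy group thus overlap in large part. Plain names occur in all 3 parts, 8 in the first and 5 in the middle. Among plain TR_V_gene members the median was 16.6 and 17.6 TPM over 34 in the last part, 7.95 and 6.18 TPM over 5 in the middle part and 8.62 and 7.26 TPM over 7 in the first part. The 5 include Trav7-2 (0 and 0.61 TPM), which lacks only the last base of Trav7d-2. Its level rests on how shared reads were divided, and its posterior mean TPM was 15.5 and 16.1. Names with d and n do not occur in the last part, so their levels there cannot be compared.

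**Figure D2:**
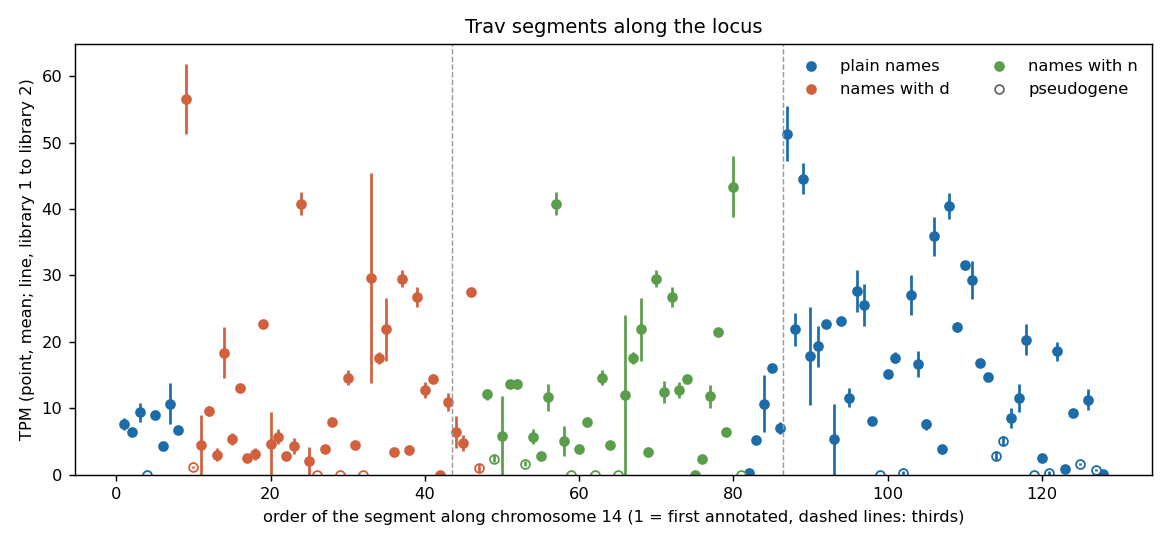
TPM of each of the 128 Trav segments against its order along chromosome 14, coloured by copy group. Points are means, lines join library 1 and library 2, open points are pseudogenes, and dashed lines part the order into the first 43, middle 43 and last 42 segments. The last part, all with plain names, has the most segments above 15 TPM, and long lines mark segments that differ between libraries, such as Trav12d-3.

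Plain names made up 47.5% ± 0.691 of Trav TPM over 55 segments, names with d 28.1% ± 1.12 over 39, and names with n 24.4% ± 0.427 over 34 (SD, n = 2). In 31 cases the same name exists as a plain, a d and an n copy, and in 24 of them all copies are TR_V_gene. The plain copy was above the mean of the d and n copies in both libraries in 18 of the 24 and below it in both in 5. Against the sum of the d and n copies, it was above in both libraries in 8 and below in both in 12. Of the 24, Trav7-4 had the widest margin over that mean, at 55.6 and 47.2 TPM, against 22.2 and 14.5 TPM for Trav7d-4 and 11.3 and 13.0 TPM for Trav7n-4. Trav14-1 went the other way, at 28.8 and 22.4 TPM, against 42.5 and 39.1 TPM for each of Trav14d-1 and Trav14n-1. Trav16, Trav13-2, Trav14-3 and Trav12-3 were also below the mean of their copies in both libraries. Trav12-3 was so by little in library 2, at 18.7 against 19.0 TPM. Among the 18 is Trav6-6, whose plain and d copies have the same sequence and were given equal values.

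**Figure D3:**
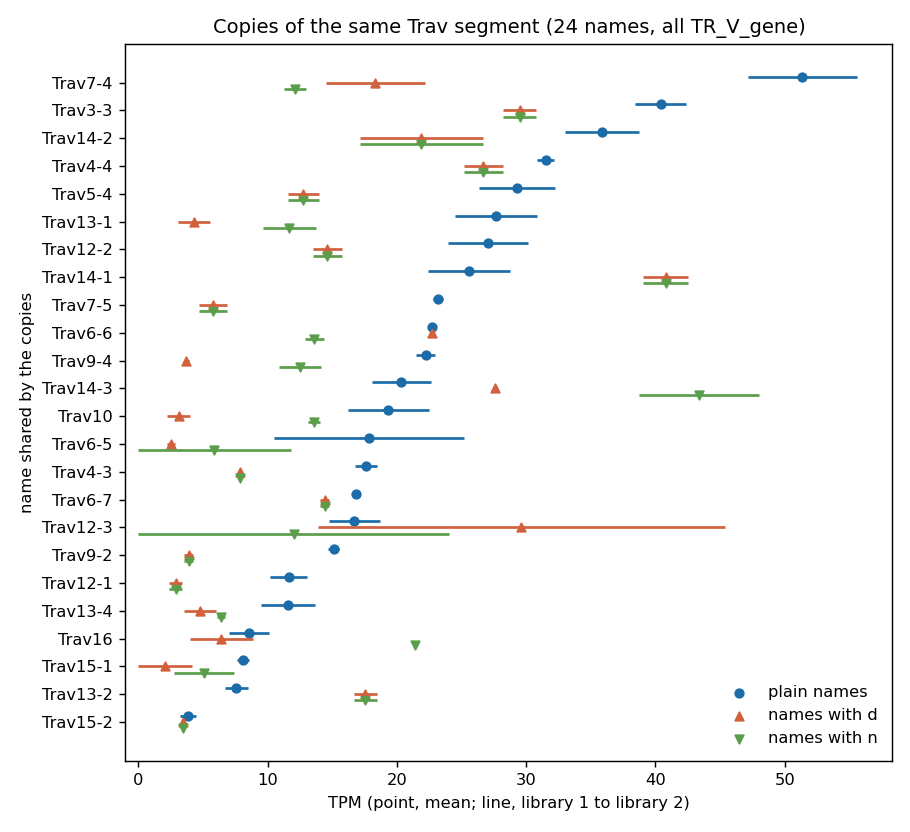
TPM of the plain (circles), d (triangles up) and n (triangles down) copies of 24 Trav names whose copies are all TR_V_gene, with points at the mean and lines from library 1 to library 2. The plain copy lies to the right of its copies in most rows, with Trav14-1, Trav14-3, Trav16, Trav13-2 and Trav12-3 below the mean of their copies in both libraries. The copies of a name are set apart vertically within its row. Identical copies lie at the same TPM, and these are d and n copies except for Trav6-6, where they are the plain and d copies.

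Many of these segments cannot be told apart by short reads. The effective length in the tables was the transcript length less 49 bases, so sharing was measured in windows of 50 bases. A window counted as unique if it occurred, on either strand, in no transcript of another M21 gene. Of the 128 segments, 42 had no unique window, 33 had some but under 50%, 43 had 50% to under 100%, and 10 had only unique windows. The 42 segments without a unique window held 32.2% ± 0.0447 of Trav TPM (SD, n = 2).

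Copies with the same sequence were given the same value. Among 540 pairs within subfamilies, 17 had identical transcript sets, and 15 of these had reads. All 15 had equal estimated counts in both libraries to within 0.005, and no pair with reads that differed in sequence did. Trav14d-1 and Trav14n-1, whose 415 bases are the same, had 298 counts each in library 1 and 269 each in library 2. Trav3d-3 and Trav3n-3 had 166 each and 144 each, Trav4d-4 and Trav4n-4 162 each and 176 each, and Trav6d-6 and Trav6-6 141 each and 138 each. An equal value in such a pair is a property of the division and not a measurement of each copy.

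A pair that differs only at the 3' end was given opposite values in the libraries. Trav11 (chr14:53519303-53519859, plus strand) and Trav11d (chr14:52824357-52824912, plus strand) encode the V part of the semi-invariant receptor of natural killer T cells, which pairs with Traj18. Their transcripts are the same but for the last base, which Trav11d lacks (capital):
Trav11, bases 284 to 343: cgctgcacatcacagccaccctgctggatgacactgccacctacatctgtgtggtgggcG
Trav11d, bases 284 to 342: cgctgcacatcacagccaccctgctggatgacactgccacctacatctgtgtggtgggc
Trav11 was given 0 counts by the model in library 1 and 64.2 in library 2, whereas Trav11d was given 58.2 and 0. With the pseudogene Trav11n (12.8 and 7.85 counts) the subfamily had 71 and 72 counts, or 11.5 and 11.9 TPM. Its level was thus nearly the same in both libraries while the named segment changed over. Of the markers of natural killer T cells, Traj18 had 134 and 106 TPM (48 and 37 counts), Klrb1c 1.73 and 1.68 TPM, and their defining factor Zbtb16 0.02 and 0.02 TPM.

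Trav11n differs from Trav11 by 8 substitutions over 343 bases and has 231 unique windows of 294. Counted from 1 at the first base of the start codon of Trav11, C138G turns codon 46 into an in-frame stop (codon in capitals):
Trav11, bases 109 to 168: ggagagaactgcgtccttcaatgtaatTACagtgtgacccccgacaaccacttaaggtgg
Trav11n, bases 109 to 168: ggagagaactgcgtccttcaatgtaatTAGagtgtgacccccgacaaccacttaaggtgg

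Another 4 segments were listed at 0 in 1 library with at least 10 estimated counts in the other, which makes 6 of the 110 with a summed count of at least 10. Over all genes this held for 374 of 18746 (2%). Each of the 6 has a near-identical copy that moved the other way. Trav12n-3 had 0 and 150 counts, while Trav12d-3 had 286 and 84.8. They are identical but for 6 bases at the start that the annotation gives Trav12n-3 alone (capitals):
Trav12n-3: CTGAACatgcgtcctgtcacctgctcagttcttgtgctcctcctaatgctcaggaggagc
Trav12d-3: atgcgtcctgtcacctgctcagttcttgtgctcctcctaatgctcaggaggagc
Trav6d-3 had 0 and 55.4 counts, while Trav6-3 had 84 and 33.6. Over their shared bases they differ by 1 substitution, A386T, counted from the first base of the longest Trav6-3 transcript and 2 bases before its end (capitals):
Trav6-3: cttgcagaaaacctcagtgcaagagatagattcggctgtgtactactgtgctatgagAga
Trav6d-3: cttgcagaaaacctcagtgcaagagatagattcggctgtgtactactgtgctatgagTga
Trav6n-5 had 72.0 and 0 counts beside 72.1 and 154 in Trav6-5, although this pair differs by G83T, G84T, A85T and A371G, counted from the first base of the longest Trav6-5 transcript. Trav15d-1-dv6d-1 had 0 and 27.3 beside 47.5 and 17.0 in Trav15n-1. The deposited posterior means were above 1 count for all 6 in both libraries. For Trav12n-3 the posterior mean was 73.0 with a posterior SD of 56.0 counts in library 1.

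The highest single segment also has a copy that differs at the 3' end alone, but this pair was divided alike in both libraries. Trav7-2 lacks only the last base of Trav7d-2 (capital), and it had 0 and 3.58 counts, while Trav7d-2 had 376 and 303:
Trav7d-2, bases 278 to 337: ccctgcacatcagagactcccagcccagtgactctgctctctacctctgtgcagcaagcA
Trav7-2, bases 278 to 336: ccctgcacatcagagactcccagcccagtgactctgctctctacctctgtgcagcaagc
The posterior SD of Trav7d-2 was 83.2 counts in library 1 and 70.7 in library 2.

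Another pair with substitutions inside the transcript was divided alike in both libraries, unlike Trav6-5 and Trav6n-5. Trav9-1 and Trav9d-1 differ over their shared bases by A240G and G305A, counted from the first base of the longest Trav9-1 transcript (capitals):
Trav9-1, bases 230 to 315: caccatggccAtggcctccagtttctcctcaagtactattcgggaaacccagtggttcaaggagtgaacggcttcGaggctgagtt
Trav9d-1, bases 169 to 254: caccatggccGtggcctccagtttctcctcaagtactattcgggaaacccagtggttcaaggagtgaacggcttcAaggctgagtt
Trav9-1 had 346 and 302 counts with posterior SDs of 10.6 and 10.03, and Trav9d-1 had 80.8 and 76.2 counts with posterior SDs of 10.1 and 9.70. The values of these 2 segments did not overlap, and their order was the same in both libraries.

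The posterior SD followed the share of unique windows. Among segments with a posterior mean of at least 10 counts, the median posterior SD was 52.2% and 51.4% of the count with no unique window. It was 12.4% and 15.8% with under 50% unique, 5.09% and 5.22% with 50% to under 100%, and 0 where all windows were unique. The posterior SD covers the division of reads within a library and not the spread between libraries.

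**Figure D4:**
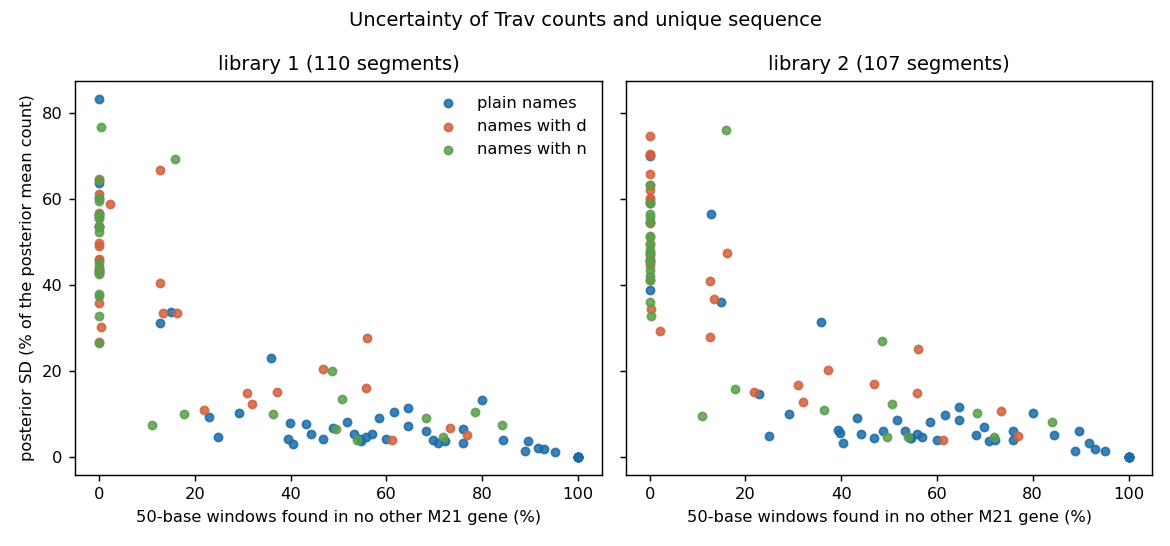
Posterior SD of the count, as a percent of the posterior mean count, against the percent of 50-base windows found in no other M21 gene, for segments with a posterior mean of at least 10 counts in library 1 (left) and library 2 (right), coloured by copy group. Most segments with no unique window lie between 30% and 75%, and those with only unique windows lie at 0.

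Pooled by subfamily, the divided reads came back to nearly whole numbers. The summed estimated counts lay within 0.05 of a whole number in both libraries for 21 of 23 subfamilies. This held for 14 of the 116 single segments with a read. Both counts include the subfamilies of 1 segment, Trav1, Trav2 and Trav17 to Trav23, whose windows are all unique and where nothing was divided. The exceptions were Trav7 (1678 and 1383 counts) and Trav13 (655 and 611 counts). In the other subfamilies no segment shares a window with a gene outside its subfamily, so nearly whole sums there are a property of the division. Trav7n-6 shares 331 of its 332 windows with C920008G01Rik, a gene annotated TR_V_gene without a Trav symbol. With that gene added, Trav7 came to 1781 and 1484 counts, within 0.01 of whole. Trav13 segments share windows with the antisense genes Gm30214 and Gm43650. Trav13-4-dv7, Trav13d-1 and Trav13d-3 also share 17, 3 and 3 windows with B230359F08Rik, another TR_V_gene without a Trav symbol. Trav13d-3, Trav13n-3 and Trav22 overlap an antisense gene on the other strand. No source used here says whether the libraries keep strand, so the Trav13 and Trav22 values are uncertain in that respect.

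Counts from genome alignments on the older M4 annotation were available for 99 of the segments. Where all windows were unique, the M4 counts were 103% and 102% of the M21 estimated counts. The share was 54.1% and 55.0% with 50% to under 100% unique windows, 25.9% and 23.5% with under 50%, and 1.80% and 1.90% with none, where 29 of 33 segments had an M4 count of 0 in each library. M4 counts were below M21 counts for genes in general, with medians of 53.6% and 54.4% over 3624 other genes up to the highest Trav count, and 3.40% and 3.66% for Trac. The part of this general difference in the Trav values was not tested.

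Between the libraries, the subfamilies varied less than their segments. The median absolute log2 ratio of library 1 over library 2 was 0.14 over 21 subfamilies, 0.26 over 110 segments, 0.21 over all 18746 genes tested and 0.48 over the 10155 genes with summed counts in the segments' range. The subfamilies hold more counts each than the segments, and the 10155 genes were not matched to the segments by count within that range. The log2 ratio of all Trav counts was 0.01. Of the 23 subfamilies, 21 lay within 2 counting SDs of equality. Trav7 was higher in library 1 (log2 ratio 0.16, counting SD 0.05) and Trav10 lower (log2 ratio -0.30, counting SD 0.13). Only Trav18 differed by more than 1.5-fold, with 7 and 3 counts.

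An exact binomial test with Benjamini-Hochberg adjustment over all genes, which sets 1 library against the other and allows for counting error alone, called 16 of 110 segments different (14.5%). Over all genes tested it called 36.5%. Higher in library 1 were 8 segments (19.2% over all genes) and higher in library 2 were 8 (17.2% over all genes). Of the 16, 15 had under 50% unique windows (66 tested) and 1, Trav7-1, had more (44 tested). Trav7-1 had 83.8 and 45.4 counts, a log2 ratio of 0.78 (adjusted p = 0.012 by the exact binomial test). Trav7-1 was not called by the edgeR test below. The largest of the 16 were the changeovers already described, such as Trav12n-3 and Trav11. In each changeover pair both members were called, 1 in each direction. Trav14d-2 and Trav14n-2 have the same sequence and the same 97 and 142 counts, so 1 value entered as 2 calls. The 110 segments are thus not separate measurements. edgeR's exact test with a common dispersion called 8 of the 110, against 2.98% over all genes. On M4 counts the binomial test called 1 of 63, Trav10 (32 and 55 counts), against 14.3% over all genes.

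**Figure D5:**
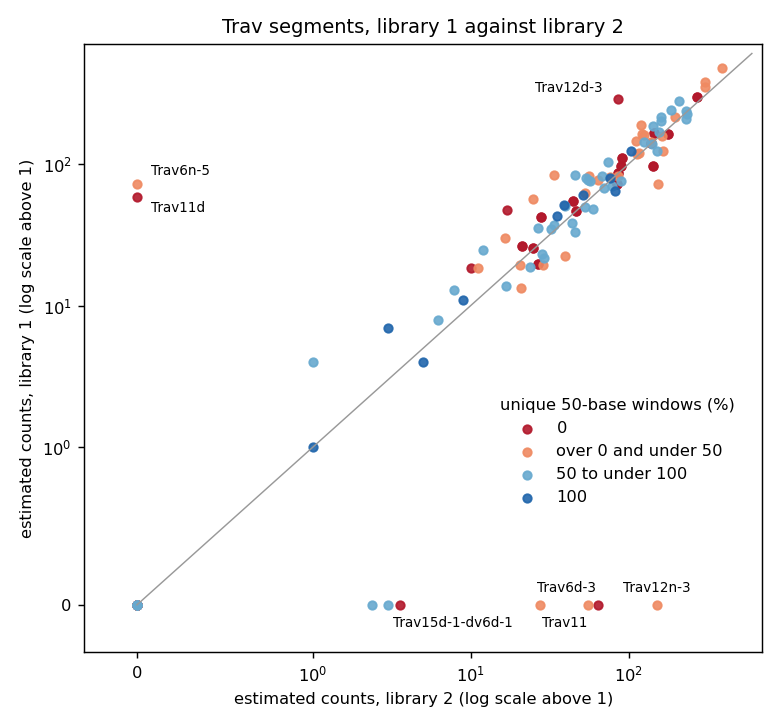
Estimated counts of the 128 Trav segments in library 1 (vertical) against library 2 (horizontal), linear from 0 to 1 and log above, coloured by the percent of unique 50-base windows. Most points lie by the diagonal, and the 6 named points on the axes have 0 in 1 library and at least 10 in the other.

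The segments of the innate-like T cell receptors were not among the highest. The Trav11 subfamily (11.5 and 11.9 TPM over 3 segments) ranked 15 of 23 subfamilies, at 0.746% ± 0.0481 of Trav TPM (SD, n = 2). Trav1, which pairs with Traj33 in mucosal-associated invariant T cells, had 8.62 and 6.79 TPM (51 and 39 counts, all windows unique), 0.490% ± 0.0647 of Trav TPM (SD, n = 2). Traj33 had 59.1 and 54.8 TPM on 10 and 9 counts. The part of such cells in these levels was not tested.

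For 39 segments the annotation gives both a longer and a shorter transcript. Among the 37 with TPM in both libraries, the longer one held a median of 41.6% of the segment's TPM in library 1 and 27.7% in library 2. It held over 50% in both libraries in 12 and under 50% in both in 20. Identical copies enter these numbers separately, such as Trav13d-2 and Trav13n-2 at 41.6% and 15.1% each. The split between transcripts also rests on how shared reads were divided. For Trav6-5 the longer transcript held 100% in library 1 and 27.7% in library 2. All of the level of Trav17 (19.9 and 17.2 TPM) was given to its longer transcript, and all of that of Trav1 to its shorter one.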

How the data were processed

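PolyA RNA-seq of Treg cells was analysed from 2 libraries, technical replicates 1 and 2 of 1 biosample, as 1 group. Per the file headers, the deposited M21 gene and transcript tables (mm10) hold estimated counts, in which the authors' model divided shared reads, TPM and FPKM (per length), and signal columns that are never negative (posterior SDs, posterior mean TPM and TPM bounds). The deposited M4 tables hold whole-number read counts per gene. The file lists deposited with the libraries give transcriptome alignments for M21 and genome alignments for M4. No source used here names the aligner, quantifier or counter.

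Gene names, biotypes and coordinates (1-based) came from GENCODE M21, and sequences from its transcripts. Rows that name no gene took 0.197% and 0.212% of estimated counts and were left out. Library totals after that were 34697128 and 32049199. Windows of 50 bases were compared with all M21 transcripts on both strands. Identity was taken over end-gap-free alignments of the longest transcripts (Biopython 1.88).

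For tests, estimated counts were rounded, genes summing to 10 or more were kept, and library sizes were scaled by TMM (edgeR 4.0.16). The main test was an exact binomial test, two-sided, adjusted by Benjamini-Hochberg over all kept genes (threshold 0.05). edgeR's exact test with a common dispersion of 0.0228 was the alternative, because quasi-likelihood fits need more than 1 library per side. In log2 ratios library 1 is the numerator and 0.5 was added to each count. Counting SDs and the limit of 3 reads that a count of 0 allows cover counting error only, since PCR copies are not independent molecules. Segments named are the 10 highest, those at 0 in 1 library, near-identical pairs, detected pseudogenes and those with a textbook role, and other genes are a set list of receptor, marker and recombination genes, of which some are not reported here. Trav2, Trav17, Trav7-1 and the copies set beside others were named after their values were seen. Members and lists were chosen with earlier results of these data known. Alternatives covered the detection minimum, unit, estimator, prior count, scaling, filter and test.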

Additional observations from a re-analysis of the deposited data

Results flagged for a closer look

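The gene C920008G01Rik lies in the Trav locus and is annotated TR_V_gene but carries no Trav symbol, so it entered none of the sums above. It had 103.19 estimated counts in library 1 and 100.81 in library 2, above the 3 reads that a count of 0 allows. Its posterior mean was 44.9 and 51.7 counts, and it shares 331 of the 332 windows of Trav7n-6, which was listed at 0. B230359F08Rik, another gene of that kind, had 19 estimated counts in library 1 and 19.25 in library 2, with posterior SDs of 0 and 0.45 counts.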

How the results depend on the processing

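Of 88 alternative values, 73 moved by less than the spread between libraries or, for counts and medians, by less than 1.5 times. For shares, part of this was fixed in advance. A share in 1 library alone always lies within the SD of 2 libraries, and shares in FPKM equal those in TPM but for rounding. A reversed direction was not looked for. In estimated counts in place of TPM, the 5 highest subfamilies held 61.9% of Trav, pseudogenes 0.966%, names with n 23.5%, plain names 48.98%, the middle part of the locus 28.9% and the last part 43.2%. In posterior mean TPM, pseudogenes held 1.33%, names with d 26.7%, names with n 25.5%, the first part 27.6% and the middle part 31.4%. With TR_V_gene members alone the 5 highest subfamilies held 59.9%. With posterior means, 0 segments in place of 6 were at 0 in 1 library. The test between libraries called 8 segments with edgeR's exact test and 1 on M4 counts, in place of 16. The causes were not tested, apart from the 63 segments tested on M4 in place of 110.

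In each library alone, 107 segments and 20 to 21 subfamilies were detected, Trav14 held 17.3% to 18.1%, the same 5 subfamilies 59.1% to 59.7%, pseudogenes 1.05% to 1.14%, names with d 27.3% to 28.9%, names with n 24.1% to 24.7%, plain names 47.0% to 48.0%, the first part 28.0% to 30.02%, the middle part 29.4% to 29.4% and the last part 40.6% to 42.5%. Ratios and calls between libraries need both. No paired analysis was possible because the study has 1 group.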
